A study of Mus musculus with 4 samples.

Results

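Open chromatin and footprints were described around 3 genes whose products mark plasmacytoid dendritic cells (pDC) on their surface in the mouse: Siglech, Bst2 and Ly6d. The members were all open intervals and all footprints that overlapped a window around each gene on the mouse genome build mm9, chr7 from 62.85 to 63.08 Mb for Siglech (230 kb), chr8 from 74.03 to 74.09 Mb for Bst2 (60 kb) and chr15 from 74.55 to 74.64 Mb for Ly6d (90 kb). The rule for the members uses position alone. They held 34 of 51941 pDC intervals and 31 of 83701 intervals of type 1 classical dendritic cells (cDC1), the antigen-presenting cells they were compared with, together with 172 of 312959 pDC footprints and 175 of 513689 cDC1 footprints. Overlapping intervals of both cell types were joined into 39 of 93615 regions, numbered along each window: 12 at Siglech, 14 at Bst2 and 13 at Ly6d.

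The data are Omni-ATAC-seq, in which the transposase Tn5 cuts accessible DNA and the cuts are sequenced, of pDC and cDC1 with 2 replicate samples each. As the study's methods describe, both cell types were grown in vitro: cytokines served to expand mouse marrow, and Flt3 ligand to obtain dendritic cells. pDC were sorted as CD11c+ CD11b- B220+ cells and cDC1 as CD11c+ CD11b+ XCR1+ cells, so none of the 3 genes was used for the sort. The replicates were merged before the lists were made, and whether they came from separate cultures or animals is not stated. Each value below is therefore that of 1 merged library per cell type, with no replicate error and no test between cell types.

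Siglech encodes a sialic-acid-binding immunoglobulin-like lectin that signals through the adaptor DAP12 and dampens type I interferon secretion by mouse pDC. Bst2, also called tetherin, CD317 or PDCA-1, holds budding viruses at the cell membrane. It is induced by interferon in many cell types, and in the resting mouse it is a marker of pDC. Ly6d encodes a small protein of the Ly6 family anchored in the membrane by glycosylphosphatidylinositol, and it marks mouse lymphoid progenitors with B cell and pDC potential. Identity of mouse pDC is maintained by the E protein Tcf4, which binds the E-box letters CANNTG. Interferon-regulated promoters often carry the interferon-stimulated response element, whose core is GAAANNGAA.

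The RefSeq promoter sequences used here included Siglech and Bst2, 2 of the 3 members, but not Ly6d, so no Ly6d promoter was searched. The 2 promoters are shown because their letters differ in these motifs. They are the 250 bases before each gene's start on GRCm38.p6, 5′ to 3′ on the gene's strand, at chr7:55767934-55768183 (plus strand) for Siglech and at chr8:71537473-71537722 (minus strand) for Bst2. Capitals mark matches to CANNTG or GAAANNGAA.
Siglech: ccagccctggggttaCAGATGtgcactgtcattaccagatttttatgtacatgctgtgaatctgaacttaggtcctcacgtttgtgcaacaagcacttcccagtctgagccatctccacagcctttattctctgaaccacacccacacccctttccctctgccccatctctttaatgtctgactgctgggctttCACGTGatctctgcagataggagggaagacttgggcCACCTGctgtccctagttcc
Bst2: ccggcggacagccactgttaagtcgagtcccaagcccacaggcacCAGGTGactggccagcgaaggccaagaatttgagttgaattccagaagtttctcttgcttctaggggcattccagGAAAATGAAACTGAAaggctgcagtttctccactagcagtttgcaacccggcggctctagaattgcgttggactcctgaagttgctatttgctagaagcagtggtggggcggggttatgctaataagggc

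The Siglech promoter held 3 matches to CANNTG, which began at positions −235, −56 and −20 counted from the start, and none to GAAANNGAA. The Bst2 promoter held 2 matches to GAAANNGAA that overlap each other, beginning at positions −130 and −124, and 1 match to CANNTG beginning at −205. Both strands were searched. A match to CANNTG was present in 66.2% of 32851 promoters of the same length and a match to GAAANNGAA in 7.13%, so the E-box letters are common and the interferon element letters are not. The letters CACCTG, in either orientation, were found 1 time in each of these promoters and in 17.2% of all promoters. TGTGGT, the core bound by Runx factors, was found 1 time at Siglech, not at Bst2 and in 14.0% of all promoters. The short ETS core GGAA was found 4 times at Siglech and 3 times at Bst2, and in 93.4% of all promoters. CAGCTG and TGANTCA, the AP-1 site, had no match in either promoter and were present in 13.0% and 6.75% of all promoters. The dinucleotide CG occurred 2 times in the Siglech promoter and 8 times in the Bst2 promoter, against a median of 6 over all promoters, and the share of G and C bases was 50.8% at Siglech, 52.4% at Bst2 and 52.4% in the median promoter. A match is a run of letters and not a bound site. Because the lists use mm9 and the promoter sequences GRCm38, no open region below was assigned to a promoter, exon or intron, and the genes' own mm9 positions were not checked.

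By RefSeq gene order on GRCm38, the protein-coding neighbours of Siglech are Luzp2 and Tubgcp5, those of Bst2 are Ccdc194 and Mvb12a, and those of Ly6d are Lynx1 and Ly6g6g. Which of these genes lies inside a window on mm9 was not established here, so a region in a window is not tied to the gene that names it.

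The cDC1 library gave the larger lists and the higher values. The median footprint had 100 tags in pDC and 212 tags in cDC1, where the tag count is the number of Tn5 cuts counted for a footprint, not scaled for library size. For intervals, the median −log10 q was 13.5 in pDC and 30.4 in cDC1, where q is the false discovery rate that the peak caller MACS2 attached to the interval's strongest summit. Raw values are therefore lower in pDC at a typical region, and values of one cell type are best read against its own list. Over the whole lists, pDC had 0.621 times as many intervals as cDC1, 0.612 times as many bases in intervals and 0.609 times as many footprints.

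Over the 3 windows together, this deficit of pDC was not seen in intervals or in their bases. It was small for footprints, with 172 in pDC and 175 in cDC1. Intervals covered 17043 bp in pDC and 15467 bp in cDC1, a ratio of 1.10. At Siglech they covered 5906 bp in pDC and 4737 bp in cDC1 (ratio 1.25), at Ly6d 5125 bp in pDC and 4543 bp in cDC1 (ratio 1.13), and at Bst2 6012 bp in pDC and 6187 bp in cDC1 (ratio 0.972). All 3 ratios were above the 0.612 of the whole lists. Footprints numbered 48 in pDC and 57 in cDC1 at Siglech, 64 in pDC and 70 in cDC1 at Bst2, and 60 in pDC and 48 in cDC1 at Ly6d, the only window in which pDC had more.

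Most intervals in the windows were open in both cell types. Of the 34 pDC intervals, 8 did not overlap any cDC1 interval (23.5%, 95% Wilson interval 12.4 to 40.0%), against 19.7% of all pDC intervals. Of the 31 cDC1 intervals, 6 did not overlap any pDC interval (19.4%, 9.19 to 36.3%), against 50.9% of all cDC1 intervals. The pDC share was thus near its background, and the cDC1 share was below its own, with a confidence interval that does not reach it. Confidence intervals here cover counting error only, and neighbouring open intervals are not independent of each other. By window, intervals found only in pDC were 2 of 10 at Siglech, 2 of 12 at Bst2 and 4 of 12 at Ly6d, and intervals found only in cDC1 were 2 of 10, 2 of 12 and 2 of 9 in the same order.

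**Figure D1:**
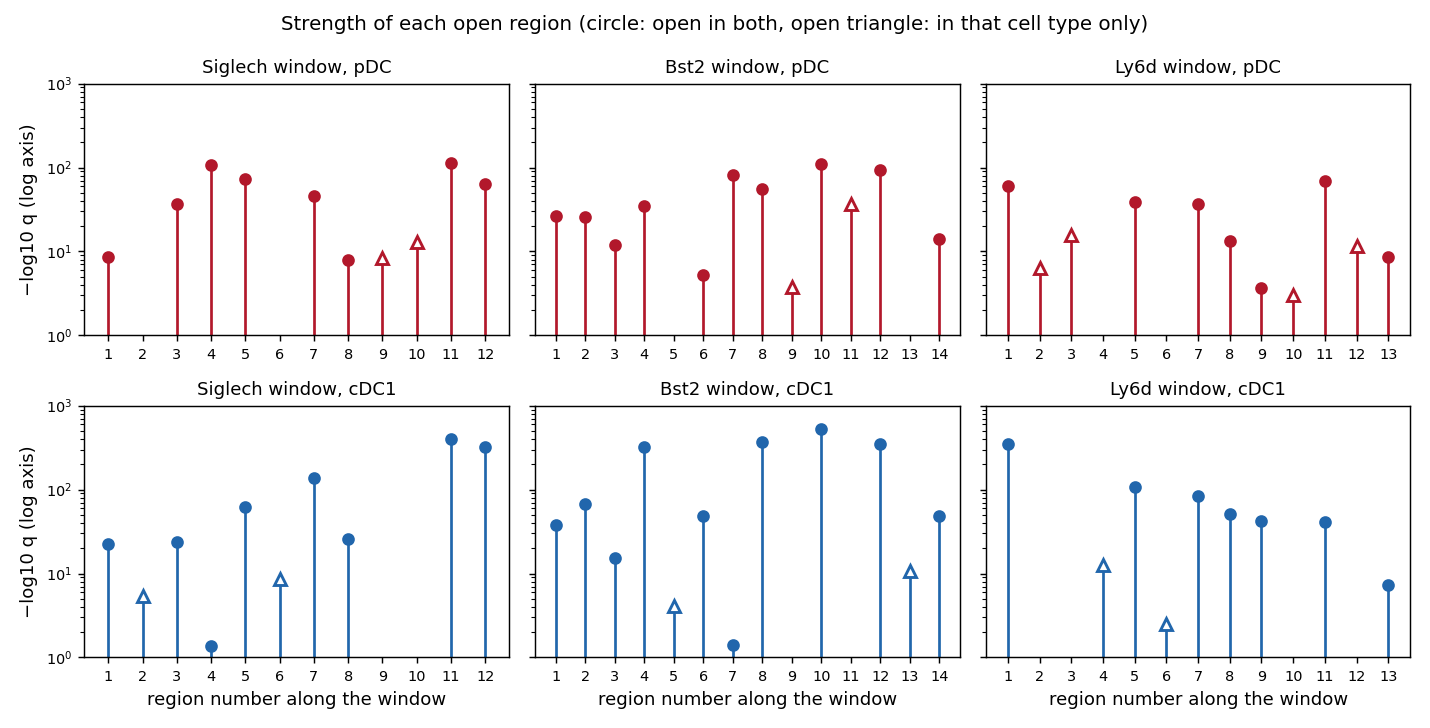
Strength of every open region in the Siglech, Bst2 and Ly6d windows, with pDC in the upper row and cDC1 in the lower row. The horizontal axis is the region's number along the window and the vertical axis is the −log10 q of its strongest summit on a log axis. Filled circles are the 25 regions open in both cell types, open triangles the 8 found only in pDC or the 6 found only in cDC1, and a missing marker means no interval. Siglech region 4 (105.9 in pDC, 1.38 in cDC1) and Bst2 region 7 (81.5 in pDC, 1.42 in cDC1) are tall in the upper row and near the base of the lower row.

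Of the 39 regions, 25 were open in both cell types, and in 6 of these the −log10 q was larger in pDC although pDC values were lower across the list. Over all 40721 regions open in both, that held for 8.99%. The 6 regions comprised 3 of 8 at Siglech, 1 of 10 at Bst2 and 2 of 7 at Ly6d, and each window thus held at least 1. To compare amounts of cutting, footprints of both cell types that overlapped by at least 50% of their bases were paired, the pair with the most tags stood for its region, and the ratio of pDC to cDC1 tags was divided by its median over all 91319 pairs, which was 0.305. A scaled ratio of 1 thus means that a region had the pDC to cDC1 ratio of a typical pair.

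A pair was present in 18 of the 25 regions, 6 in each window. The scaled ratio was 2 or more in 6 of the 18, against 12.6% of 31914 paired regions in the whole series. It was 0.5 or less, a 2-fold difference towards cDC1, in 0 of the 18, against 8.93%. The remaining 12 regions were within 2-fold. The median scaled ratio over the 18 regions was 1.24, against 1.01 over all paired regions. By window it was 2.20 at Siglech, where 3 of 6 regions reached 2, 1.17 at Bst2 with 1 of 6, and 1.20 at Ly6d with 2 of 6. These counts depend on the measure. When the fold enrichment at the summit over the MACS2 background, divided by its own median ratio, took the place of tags, 1 of the same 18 regions was at least 2-fold higher in pDC, Bst2 region 7. Fold enrichment needs no pair, and over all 25 regions open in both it gave 2, with Siglech region 4 as the other, against 6.34% of all such regions. When tags were scaled by the read totals of the libraries, 4 of the 18 were at least 2-fold higher in pDC, against 3.36% of all paired regions, and 2 in cDC1, against 42.8%. That scaling moved the median of all regions by −0.91 on the log2 scale.

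**Figure D2:**
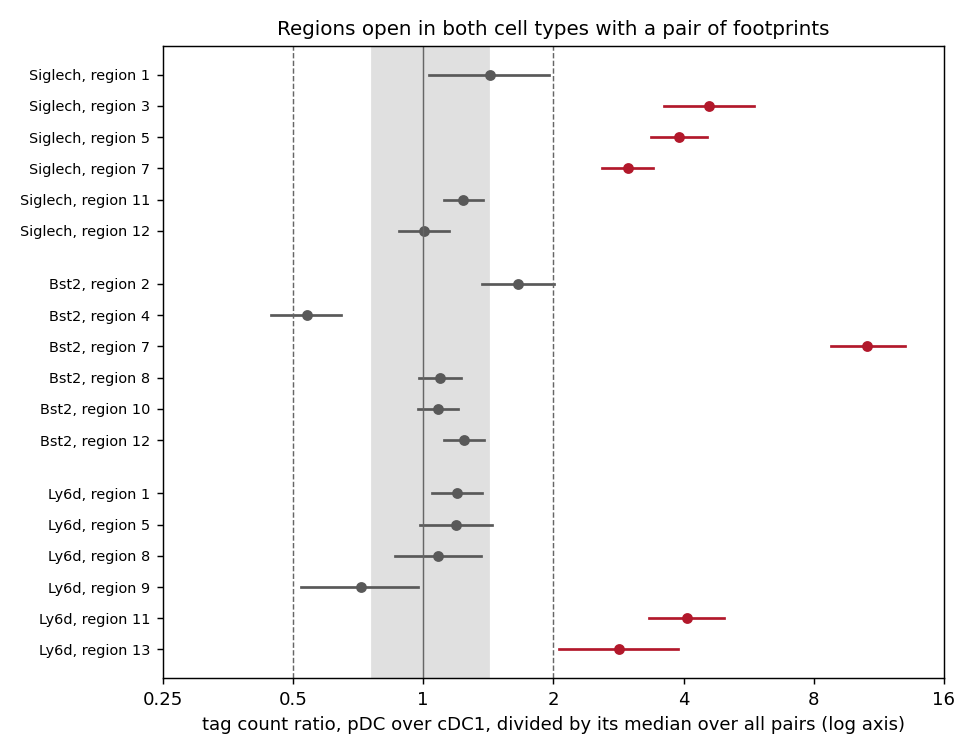
Scaled tag count ratio, pDC over cDC1, of the 18 regions with a pair of footprints, on a log axis, with 1 line for each region of the Siglech, Bst2 and Ly6d windows. Points are ratios divided by the median over all pairs, bars are exact 95% intervals that cover counting error only, red marks the 6 regions at 2 or more, the dashed lines stand at 0.5 and 2, and the grey band spans the quartiles of all 31914 paired regions (0.763 to 1.42). Bst2 region 7 stands furthest to the right at 10.6 and Bst2 region 4 furthest to the left at 0.538.

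At Siglech, the region that differed most between the cell types was region 4, chr7:62999546-63000591. In pDC its interval spanned 1046 bp with a −log10 q of 105.9 and a fold enrichment of 9.52, while in cDC1 an interval of 263 bp reached 1.38 and 1.92. The cDC1 interval was among the weakest of its list, in which 99.8% of cDC1 intervals had a larger −log10 q. The excess of the pDC over the cDC1 −log10 q was larger in only 47 of the 40721 regions open in both (0.115%). Inside it, pDC had 9 footprints with 179 to 403 tags centred between −216.5 and 80 bp from the pDC summit, and the highest covered the summit itself. The 2 cDC1 footprints had 64 and 51 tags and were centred at −312.5 and −275.5 bp, so no pair could be formed and the footprints of the 2 cell types lay at different places. Set against each other without pairing, the highest tag counts of 403 in pDC and 64 in cDC1 gave a raw ratio of 6.30 and a ratio of 20.4 after division by the median of the same measure, and the fold enrichment gave 7.16.

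Siglech regions 5 and 7 lay further along the window and were cut strongly in both cell types. Region 5, chr7:63020658-63021134, had a −log10 q of 73.5 in pDC and 61.4 in cDC1. Its 3 pairs of footprints held 357, 400 and 390 tags in pDC, against 320, 336 and 269 tags in cDC1, so pDC was higher in every pair even before scaling, and the scaled ratio of the pair with the most tags was 3.90 (3.36 to 4.52). Only 3.1% of paired regions had a higher one. Region 7, chr7:63023263-63023838, had 317, 355 and 420 tags in pDC, against 267, 354 and 463 tags in cDC1, for a scaled ratio of 2.97 (2.60 to 3.40). There the measures went apart: the −log10 q was 46.0 in pDC and 138 in cDC1, the fold enrichment was 3.99 in pDC and 9.69 in cDC1, and the scaled ratio of fold enrichment was 0.595. At region 5 the fold enrichment was 5.35 in pDC and 6.17 in cDC1, a scaled ratio of 1.25. A higher pDC signal at region 7 thus rests on tags alone.

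Siglech region 3, chr7:62992650-62993392, picked out after its values were seen, lay before region 4 and had the highest paired ratio of this window. Its −log10 q was 36.9 in pDC and 23.6 in cDC1, and its pairs held 166 and 169 tags in pDC, against 106 and 121 tags in cDC1, for a scaled ratio of 4.57 (3.60 to 5.83). By fold enrichment the scaled ratio was 1.64 and so below 2. The same 2 footprints were therefore seen in both cell types, 1 of them with identical ends, while the other 8 pDC and 9 cDC1 footprints of the region were not shared.

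The regions of the Siglech window that were strongest in cDC1 did not follow this pattern. Region 11, chr7:63039801-63040597, had the largest −log10 q of the window in both cell types, 113 in pDC and 404 in cDC1, with 509 tags in pDC and 1346 tags in cDC1 in its pair and a scaled ratio of 1.24 (1.12 to 1.37). Region 12, chr7:63049130-63049945, held 1 footprint with the same ends in both lists, with 287 tags in pDC and 934 tags in cDC1 and a scaled ratio of 1.01 (0.879 to 1.15). Both thus had close to the tag ratio of a typical pair, while by fold enrichment their scaled ratios were 0.734 and 0.716. Intervals found in 1 cell type only were at or below the median strength of their lists. Regions 9 and 10, found in pDC only, reached a −log10 q of 8.45 and 13.0, and regions 2 and 6, chr7:62989995-62990280 and chr7:63022453-63022695, found in cDC1 only, reached 5.39 and 8.56. Region 6 thus lay between regions 5 and 7, which had more tags in pDC by the scaled ratio. Regions 1 and 8, the other regions open in both, had a −log10 q of 8.50 and 7.94 in pDC and 22.2 and 26.0 in cDC1.

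**Figure D3:**
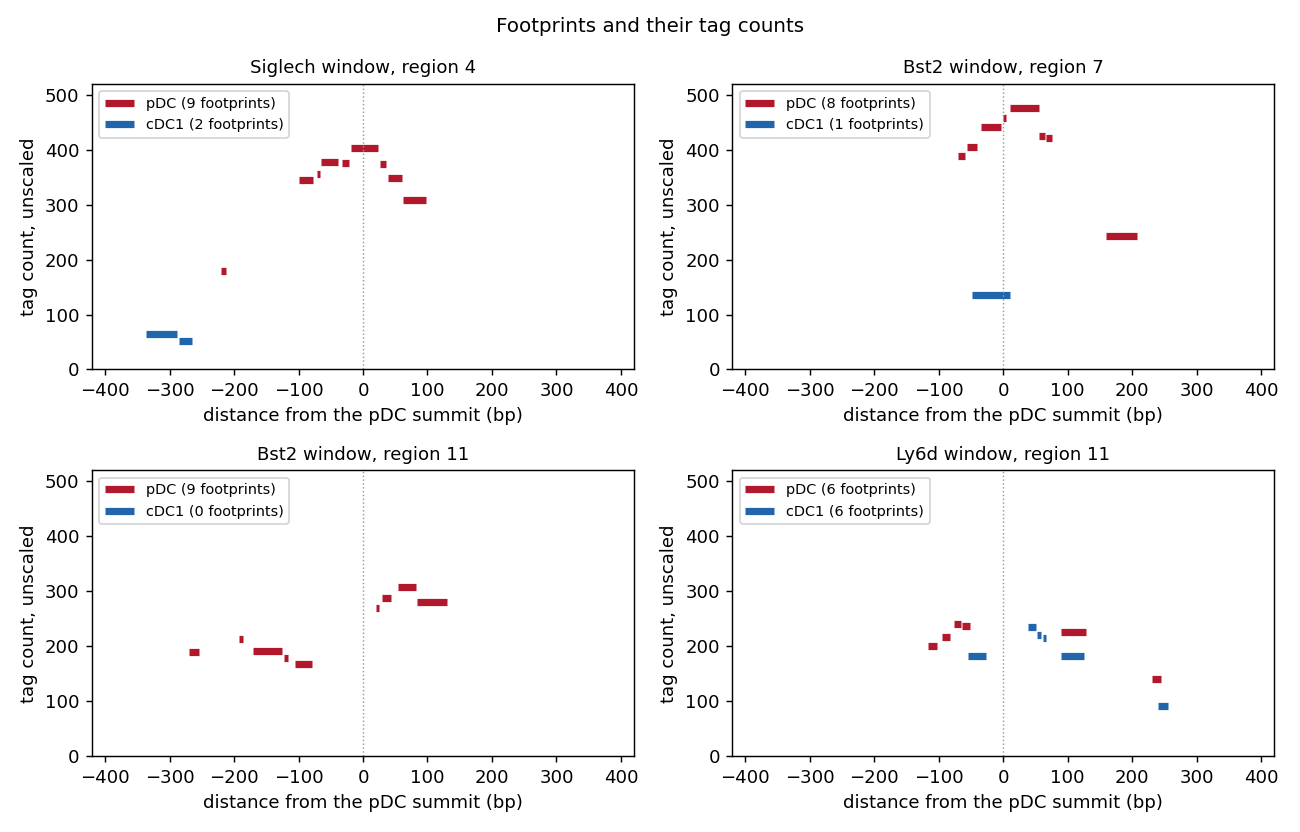
Footprints of 4 regions, Siglech region 4, Bst2 regions 7 and 11 and Ly6d region 11. Each bar is 1 footprint, drawn over its width at its distance from the pDC summit in bp (horizontal axis) and at its tag count, not scaled for library size (vertical axis), in red for pDC and in blue for cDC1. pDC footprints cluster at the summit in Siglech region 4 (179 to 403 tags) and Bst2 region 7 (242 to 475 tags), where cDC1 has 2 and 1 footprints, and Bst2 region 11 has none in cDC1.

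At Bst2, region 7, chr8:74059506-74060186, stood out in the same way. The pDC interval spanned 681 bp with a −log10 q of 81.5 and a fold enrichment of 5.66, and the cDC1 interval spanned 200 bp with 1.42 and 1.49. The 8 pDC footprints had 242 to 475 tags and the only cDC1 footprint had 136. The pair that it formed held 442 tags in pDC, against 136 tags in cDC1, for a scaled ratio of 10.6 (8.76 to 13.0), and 92 of the 31914 paired regions had a higher ratio (0.288%). Its excess of −log10 q was exceeded in 124 of 40721 regions (0.305%). The cDC1 footprint, of 58 bp, overlapped only some of the shorter pDC footprints, and the pDC footprint with 475 tags lay outside it. By fold enrichment the scaled ratio was 5.49, so both measures place this region above 2. The cDC1 intervals of this region and of Siglech region 4 are listed with a −log10 q under 10, and where 10 was required in both lists, both regions counted as pDC only and 6 of 24 pDC intervals did so, against 18.5% of the list.

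Region 8, chr8:74060960-74061824, began 773 bp after the end of region 7 and did not share its difference. It had 8 footprints in pDC and 12 in cDC1, a −log10 q of 56.2 in pDC and 369 in cDC1, and a pair with 426 tags in pDC and 1275 tags in cDC1, for a scaled ratio of 1.09 (0.978 to 1.22). Region 10, chr8:74066448-74067222, which had the largest −log10 q of the window in both cell types (111 in pDC and 523 in cDC1), gave 467 tags in pDC and 1415 tags in cDC1 in a footprint with the same ends in both lists, a scaled ratio of 1.08 (0.972 to 1.20). Region 12, chr8:74082474-74083581, had 12 footprints in each cell type and a pair of 492 tags in pDC and 1296 tags in cDC1, a scaled ratio of 1.24 (1.12 to 1.38). These 3 regions, strong in both cell types, were thus near the typical ratio.

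Region 11 of the Bst2 window, chr8:74071242-74071944, was the strongest interval of the 3 windows that had no cDC1 counterpart. Its −log10 q was 36.3 and its fold enrichment 4.19, and 1159 of the 10254 intervals found only in pDC had a larger −log10 q (11.3%). It held 9 pDC footprints with 168 to 307 tags on both sides of the summit. The other pDC-only interval, region 9, was weak with a −log10 q of 3.77, and the cDC1-only regions 13 and 5, chr8:74085342-74085600 and chr8:74051984-74052259, reached 10.9 and 4.14. The lowest ratio of the 3 windows was in region 4, chr8:74045466-74046035, singled out after its values were seen, with 133 tags in pDC, 810 tags in cDC1 and a scaled ratio of 0.538 (0.444 to 0.647). Its −log10 q was 34.7 in pDC and 323 in cDC1, and it stayed within 2-fold. Region 2 had a scaled ratio of 1.66 (1.37 to 2.00), and regions 1, 3, 6 and 14, open in both without a pair, had a −log10 q of 5.23 to 26.6 in pDC and 15.4 to 48.7 in cDC1. Without pairing, the highest tag counts gave ratios of 2.62 in region 1, 0.906 in region 6 and 1.49 in region 14, after division by the median of that measure. By fold enrichment these 3 regions gave 1.34, 0.652 and 1.05. Region 3 had no cDC1 footprint.

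At Ly6d, region 11, chr15:74599418-74600307, had the largest pDC value of the window, with a −log10 q of 68.2 in pDC and 41.2 in cDC1. Its fold enrichment was 7.85 in pDC and 6.14 in cDC1. Both cell types had 6 footprints there, of which 1 pair was shared, with 226 tags in pDC and 182 tags in cDC1 and a scaled ratio of 4.07 (3.33 to 4.97), a ratio exceeded in 2.87% of paired regions. Here cDC1 was clearly open as well, unlike at Siglech region 4 and Bst2 region 7. Its highest unpaired footprints had nearly the same raw count, 241 tags in pDC and 236 tags in cDC1, centred at −70.5 bp from the pDC summit in pDC and at 44.5 bp in cDC1. By fold enrichment the scaled ratio was 1.85 and so below 2.

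The other strong regions of the Ly6d window were closer to the typical ratio by tags. Region 1, chr15:74551288-74552218, had a −log10 q of 61.0 in pDC and 347 in cDC1 and a pair with 307 tags in pDC and 838 tags in cDC1, a scaled ratio of 1.20 (1.05 to 1.37). Region 5, chr15:74570381-74570933, had 150 tags in pDC and 412 tags in cDC1, a scaled ratio of 1.19 (0.983 to 1.44). Region 7, chr15:74579511-74580178, was open in both with a −log10 q of 36.5 in pDC and 84.4 in cDC1 but had no pair, its highest footprint having 201 tags in pDC and 436 tags in cDC1, a ratio of 1.49 after division by the median of that measure. None of these 3 regions reached 2, and by fold enrichment their scaled ratios were 0.672, 1.12 and 1.12.

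Ly6d had 4 of the 8 regions found only in pDC. They were 4 of its 12 pDC intervals (33.3%, Wilson interval 13.8 to 60.9%), a range that holds the 19.7% of the whole pDC list. The strongest was region 3, chr15:74553734-74554132, with a −log10 q of 15.9 and 7 footprints of up to 208 tags, and 3030 of the 10254 intervals found only in pDC had a larger −log10 q (29.5%). Regions 2, 10 and 12 reached 6.34, 3.01 and 11.7. Region 10 held 7 footprints although its −log10 q was exceeded by 89.3% of the pDC-only intervals, so a high number of footprints did not go with a strong interval there. The cDC1-only regions 4 and 6, chr15:74555848-74556100 and chr15:74574673-74574873, reached 12.6 and 2.49. Region 13, chr15:74618330-74618773, chosen after its values were seen, was weak in both cell types, with a −log10 q of 8.50 in pDC and 7.31 in cDC1, and had 77 tags in pDC and 89 tags in cDC1, a scaled ratio of 2.83 (2.06 to 3.89) by tags and 1.90 by fold enrichment. Regions 8 and 9 had scaled ratios of 1.08 (0.862 to 1.36) and 0.719 (0.522 to 0.974).

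Across the 3 windows, most of the regions that were strongest in cDC1 had a tag ratio close to 1. The 6 regions with the largest cDC1 −log10 q, 325 to 523, were Siglech regions 11 and 12, Bst2 regions 8, 10 and 12 and Ly6d region 1. All 6 had a scaled ratio between 1.01 and 1.24 by tags. By fold enrichment their scaled ratios were all below 1, from 0.589 to 0.853. The next, Bst2 region 4 with 323, had the lowest ratio of the 18, 0.538. The regions at 2 or more had a cDC1 −log10 q of 1.42 to 138. With an interval required to reach a −log10 q of 50 in its own list and to overlap one that does so in the other, 3 intervals were left in pDC only, Siglech region 4, Bst2 region 7 and Ly6d region 11, 1 in each window, while 7 were shared and 6 were in cDC1 only. The 3 of 10 such pDC intervals stand against 14.1% of the list and the 6 of 13 such cDC1 intervals against 76.0%. Among the 6 in cDC1 only was Siglech region 7, with 46.0 in pDC and 138 in cDC1, although its scaled tag ratio was 2.97. Ly6d region 11 counted as pDC only with 41.2 in cDC1, not far under the limit.

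**Figure D4:**
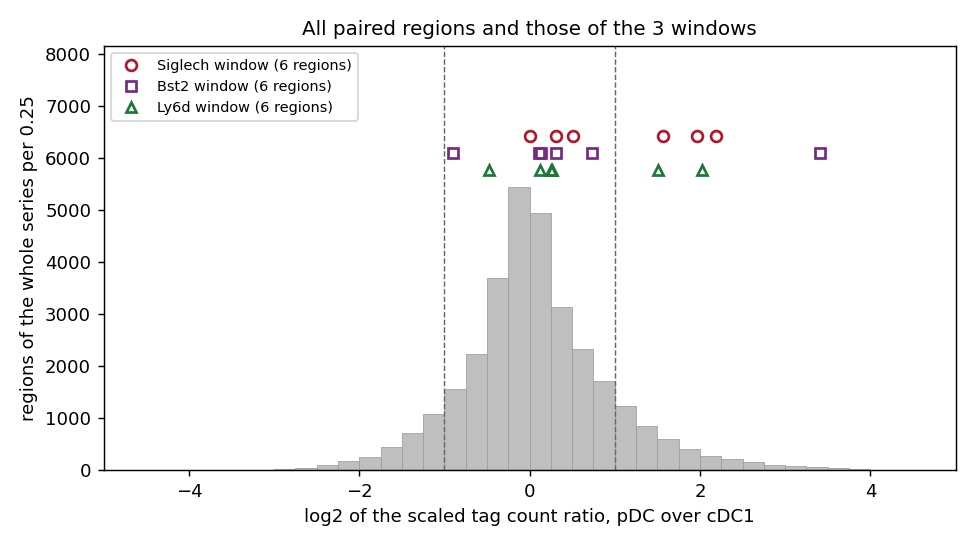
Distribution of the log2 scaled tag count ratio, pDC over cDC1, over all 31914 paired regions (grey bars, number of regions per bin on the vertical axis), with the 6 paired regions of each window marked above it at arbitrary height (circles for Siglech, squares for Bst2, triangles for Ly6d). Dashed lines stand at 2-fold. Of the marked regions, 6 of 18 lie to the right of the upper line and 0 to the left of the lower one, against 12.6% and 8.93% of all regions.

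Footprints were called shared when 1 footprint of the other cell type covered at least 50% of their bases. In the windows 57 of 172 pDC footprints were shared (33.1%, Wilson interval 26.5 to 40.5%), against 40.7% in the whole list, and 60 of 175 cDC1 footprints (34.3%, 27.7 to 41.6%), against 26.9%. Both shares thus lay off their backgrounds, in opposite directions, by little more than the counting error. Inside intervals open in both cell types, 57 of 137 pDC footprints (41.6%) and 60 of 156 cDC1 footprints (38.5%) were shared, against 48.4% and 45.1% in the whole lists. Over all footprints of a window, 31.2% of pDC footprints were shared at Siglech, 34.4% at Bst2 and 33.3% at Ly6d. For cDC1 footprints the shares were 28.1%, 35.7% and 39.6% in the same order. Inside intervals open in both, they were 34.1%, 42.3% and 48.8% in pDC and 32.0%, 39.7% and 44.2% in cDC1. There the shares were lowest at Siglech, while those at Ly6d were near the values of the whole lists.

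The footprints had widths like those of the lists, and over the 3 windows together a higher median tag count. Median widths in the windows were 17.5 bp in pDC and 16 bp in cDC1, against 18 bp and 16 bp in the whole lists. The median tag count was 170.5 in pDC and 248 in cDC1, against 100 and 212 over all footprints of each list. An interval held 5.06 footprints on average in pDC and 5.65 in cDC1, against 6.03 and 6.14 in the lists. By window the median tag count in pDC was 204 at Siglech, 256 at Bst2 and 104.5 at Ly6d, and in cDC1 it was 153, 313.5 and 234 in the same order, so that the cDC1 median at Siglech was below that of its list.

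Tag counts and fold enrichment ranked the regions differently, and this bears on every ratio above. The highest tag count per unit of fold enrichment ran between 14.7 and 105 over the pDC regions of the windows and reached 129 over the cDC1 regions. Over all regions, 10th to 90th percentiles were 15.8 to 50.6 in pDC and 27.1 to 114 in cDC1. In pDC, Siglech regions 5, 7, 8, 9, 10 and 11, Bst2 regions 7, 8, 9, 10, 11, 12 and 14 and Ly6d regions 1 and 3 lay above 50.6. In cDC1, only Bst2 regions 8, 12 and 13 lay above 114. Of the regions with a scaled tag ratio of 2 or more, Siglech regions 5 and 7 and Bst2 region 7 were thus high in pDC. Siglech region 3 and Ly6d regions 11 and 13 were not. Siglech region 7 had 420 tags at a fold enrichment of 3.99 in pDC, and Ly6d region 11 had 241 tags at 7.85. The source of this difference between the measures was not tested. Expression of Siglech, Bst2 and Ly6d was not analysed here, and neither were the loci of the sort markers, so that the labels of the cell types were not checked beyond these windows.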

How the data were processed

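Omni-ATAC-seq of pDC and cDC1 (2 replicates each) was analysed from the lists the authors deposited. Per the study's methods and the submitters' processing notes, reads were trimmed with Trim Galore, aligned to mm9 with Bowtie2, filtered with SAMtools at an alignment quality over 30 and used for peak calling with MACS2 without a local background. No versions of these tools are stated. The methods also mention a q-value filter of 10 without its scale, while the deposited lists hold −log10 q values under 10. Replicates were merged before footprinting with HINT-ATAC, and there is 1 list of each kind per cell type. For each summit the authors deposited a fold enrichment, a −log10 q, a p-value column and a score that MACS2 derives from q. The p-value and the score were not used. The fold is a ratio to the background of the same library. In the pDC list, −log10 q and fold enrichment did not rank regions alike. Siglech region 5 had 73.5 and 5.35, and Ly6d region 5 had 39.4 and 7.19. A single background per library would rank both measures alike, and the source of this difference from the stated setting was not tested. For each footprint the authors deposited a tag count, read as unscaled; how wide a stretch was counted is not stated.

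Lines with equal ends were joined into 1 interval, with the largest −log10 q and fold enrichment of its summits. Intervals overlapping by 1 bp were shared, and overlapping intervals were merged into regions. Footprints were paired 1 to 1 at 50% of the bases of both. Ratios have exact 95% binomial (Clopper-Pearson) intervals and shares have Wilson intervals. The study's general methods state that duplicate reads were removed. Reads are still PCR products without molecular identifiers, and both ends of a fragment may be counted, so these intervals may be too narrow. No p-value was computed. Sequences are from RefSeq (GRCm38.p6). Given in full are, per window, the 5 regions with the largest pDC −log10 q and up to 3 cDC1-only regions. Members, motif list and rules were chosen with earlier results of these data known. Python 3.11.15, numpy 2.4.6, pandas 2.3.3, scipy 1.17.1 and matplotlib 3.10.9 were used, and the steps were tested on simulated data.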

Additional observations from a re-analysis of the deposited data

How the results depend on the processing

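No paired analysis was possible because the replicates were merged into 1 list per cell type, and for the same reason no replicate could be left out. Of the window counts recomputed under alternatives, 40 stayed within 1.5 times their value, with 1.5 itself included, and 9 did not. This tally compares counts and not shares, also where a setting changed the number of intervals or footprints. With only intervals that reach a −log10 q of 50, 3 pDC intervals were found in pDC only, 7 pDC intervals were shared and 7 cDC1 intervals were shared. With the cDC1 list limited to the length of the pDC list, 12 of 34 pDC intervals were found in pDC only (32.9% of the list) and 0 of 21 cDC1 intervals in cDC1 only (34.5%). The limit itself leaves out all 6 cDC1-only intervals. Regions at least 2-fold higher in cDC1 numbered 2 when tags were scaled by all reads, and 1 region was at least 1.5-fold higher in cDC1. With fold enrichment in place of tags, 2 of 25 regions (1 of the 18 with a pair) were at least 2-fold higher in pDC, and Siglech region 7 reversed to a scaled ratio of 0.595. cDC1 footprints that were not shared numbered 55 once those under their list's median tag count were left out, and 65 with the cDC1 footprint list limited to the length of the pDC list. These settings leave fewer intervals or footprints, or change the scale or the limit, by construction.

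Scaling by all reads divided the pDC to cDC1 ratio by a factor that moved the median of all regions by −0.91 on the log2 scale, with 3.36% of all regions then at least 2-fold higher in pDC and 42.8% in cDC1. Under it the scaled ratio was 5.68 at Bst2 region 7, 2.17 at Ly6d region 11, 2.08 at Siglech region 5 and 1.58 at Siglech region 7. Scaling by reads in peaks moved the median by 0.18, with 16.2% of regions at least 2-fold higher in pDC and 6.32% in cDC1, and 6 regions of the windows in pDC. With the highest tag count of each cell type, paired or not, 9 of 24 regions reached 2 towards pDC, against 13.7% of all regions, and 6 of the 18 with a pair. The alternative with fold enrichment in place of the −log10 q was chosen after seeing the data and again gave 6 regions with the larger value in pDC. The effect of depth on regions listed in 1 cell type only was not tested.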
